A study of Mus musculus with 8 samples.

Results

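The respiratory chain genes described here are the nuclear genes whose mouse symbols start with Nduf (complex I, NADH dehydrogenase), Sdh (complex II, succinate dehydrogenase), Uqcr (complex III, cytochrome c reductase), Cox (complex IV, cytochrome c oxidase) or Atp5 (complex V, ATP synthase). Of 105 such symbols among 27998 genes in the count matrix, 101 had at least 50 UMIs (unique molecular identifiers, each counting 1 captured RNA molecule) over all cells and were kept. These were 44 genes of complex I, 8 of complex II, 8 of complex III, 24 of complex IV and 17 of complex V. Complexes were set by prefix, so Ndufa4, a subunit of complex IV, is counted with complex I throughout. By role, 78 were subunits and 23 were assembly or accessory factors. The matrix held 12577 genes with at least 50 UMIs. The symbols left out were Cox7b2, Cox8b, Cox8c and Ndufa4l2, and the members nearest to the limit were Cox4i2 with 69 UMIs, Cox7a1 with 228, Atp5s with 273 and Cox6b2 with 278.

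The cells were CD45+ tumor-infiltrating leukocytes, sorted with enrichment of CD8+ T cells, from C57BL/6 mice that were 7 weeks old when given subcutaneous B16-OVA melanoma (B16-F10 cells that express ovalbumin). Tumors of several mice were pooled for each library, and each condition and day had 1 library. ACT (adoptive cell transfer) used OT1 cells, CD8+ T cells with a transgenic receptor for an ovalbumin peptide, given without lymphodepletion. Cells were untransduced (days 5 and 12), secreted PD1d (the PD-1 ectodomain fused to a human IgG4 Fc) with IL-2v (an IL-2 variant that does not engage CD25) on day 12, or secreted PD1d with IL-33 on day 12. PD1d/IL-2v/IL-33 ACT was an equal mix of both engineered cell products, sampled on days 5, 12 and 26, and a non-treated tumor pool was sampled on day 5. Days count from the first cell transfer, not from tumor injection. In the study's protocol that transfer came 12 days after the tumor cells and was followed by a further transfer. The gates used here do not separate transferred from host CD8 T cells, and a library's value cannot be told apart from that of its mouse pool.

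The respiratory chain passes electrons from NADH, through complex I, and from succinate, through complex II, to complex III, cytochrome c and complex IV, and the proton gradient built on the way drives ATP synthesis by complex V. Complexes I, III, IV and V each combine nuclear subunits with a few encoded in mitochondrial DNA. Complex II is encoded entirely in the nucleus and is also an enzyme of the TCA cycle. T cells that divide draw on both glycolysis and respiration, and long-lived T cells lean on respiration.

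Of 15700 cell barcodes with 98669511 UMIs in all (1387032 to 24917112 per library), 12827 passed the study's filter on genes, UMIs, ribosomal and mitochondrial shares (202 to 3655 per library). Raw marker UMIs placed 9294 of these in a gate: 4983 CD8 T cells (39 to 2278 per library), 1185 CD4 T cells, 1786 NK cells and 1340 myeloid cells. The smallest gate was the myeloid one of untransduced ACT on day 12, with 15 cells. Of the CD8 T cells, 689 had at least 1 UMI of Mki67, a proliferation gene. Marker genes not used for gating separated the gates: a T cell list (Cd2, Cd5, Cd6, Thy1 and Lat) summed to 2246 CPM (UMIs relative to all UMIs of the gate in a library or, here, in all libraries, on the usual CPM scale) in CD8 T cells, 2748 in CD4 T cells, 827 in NK cells and 12.7 in myeloid cells. A CD4 T cell list (Foxp3, Ctla4, Icos, Cd40lg and Tnfrsf4) gave 3707 CPM in CD4 T, 505 in CD8 T and 95.1 in NK cells. An NK list reached 11625 CPM in NK cells, 1037 in CD8 T cells and 67.2 in CD4 T cells. A myeloid list reached 6657 CPM in myeloid cells, 2921 in NK cells, which also make its member Tyrobp, and 120 in CD8 T cells. B cell, melanoma and red cell lists stayed at or below 6.15, 2.93 and 1.76 CPM in every gate. A cycling list stood at 881 CPM in Mki67-detected and 44.3 CPM in Mki67-not-detected CD8 T cells. Barcode sequences shared by at least 2 libraries numbered 143 (95 among passing cells).

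Together the 101 genes took between 22507 and 27776 CPM of the RNA of CD8 T cells. The summed level was 27776 CPM for untransduced ACT on day 5 (exact Poisson 95% interval 27625 to 27928), 22507 for untransduced ACT on day 12, 26001 for PD1d/IL-2v, 26439 for PD1d/IL-33 and 23530 for the non-treated pool. With PD1d/IL-2v/IL-33 ACT it was 26633, 25751 and 24832 on days 5, 12 and 26. Untransduced ACT held both the highest and the lowest of these levels, the lowest in its library of 39 CD8 T cells. Intervals cover counting error only and carry no mouse-to-mouse spread. The lowest, median and highest levels were 23521, 24136 and 26793 CPM in CD4 T cells, 21974, 24030 and 25808 in NK cells, and 20766, 24495 and 30119 in myeloid cells. The myeloid gate had the widest range, from untransduced ACT on day 5 up to the combined PD1d/IL-2v/IL-33 product (28130 CPM on day 5 and 30119 on day 12).

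By complex, the summed levels in CD8 T cells had a lowest, median and highest library of 6227, 6993 and 7627 CPM for complex I, 2025, 2352 and 2646 for complex III, 6242, 7819 and 8438 for complex IV and 7311, 8098 and 8812 for complex V. Complex II, with the fewest subunits, lay between 386 and 605 CPM with a median of 509. The assembly and accessory factors of all complexes together gave 1222 to 1484 CPM. The 13 protein genes of mitochondrial DNA, which are not among the 101, summed to 26208 to 36770 CPM in the same cells. UMIs were counted from the 5′ end of transcripts and are not divided by length, so levels of different genes are not ranked here.

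**Figure D1:**
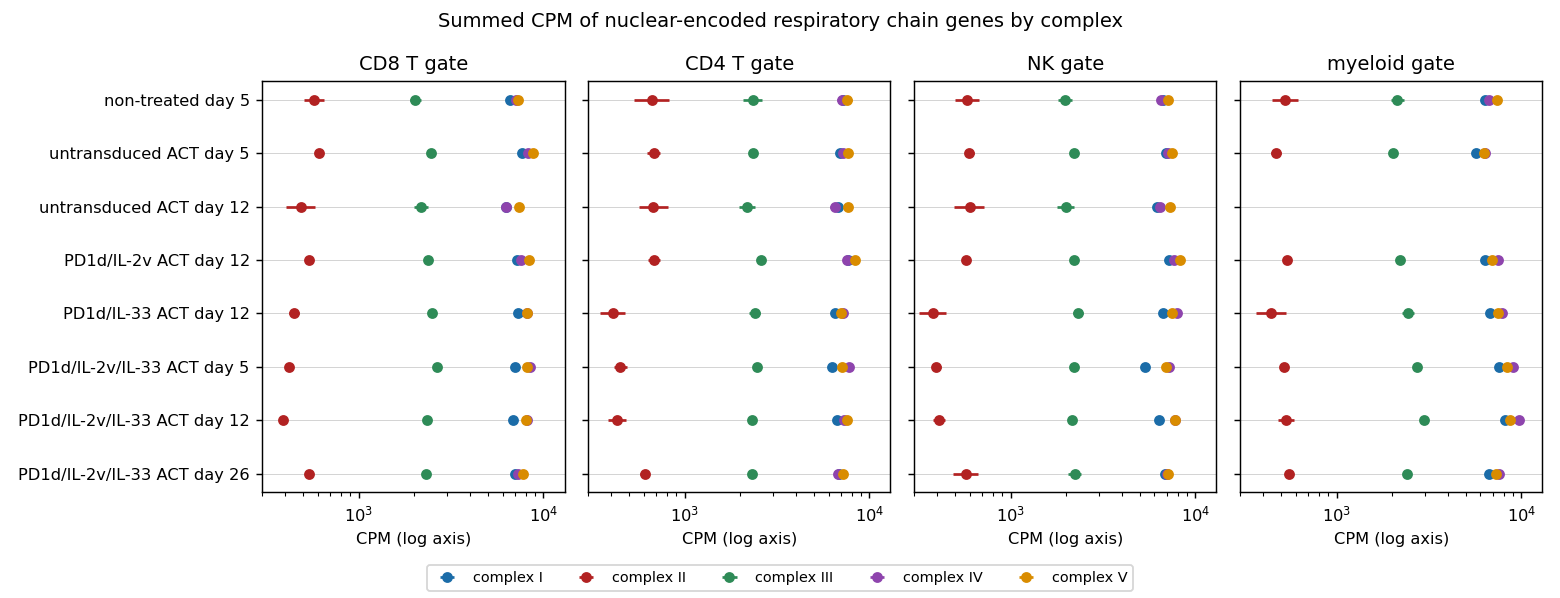
Summed CPM of the nuclear genes of each complex (horizontal log axis) in each of the 8 libraries (rows) for the 4 gates, with exact Poisson 95% intervals as bars; the myeloid gate of untransduced ACT on day 12 (15 cells) is left out. Complex II (red) sits further to the left in the CD8 T, CD4 T and NK gates of PD1d/IL-33 ACT on day 12 and PD1d/IL-2v/IL-33 ACT on days 5 and 12.

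In CD8 T cells complex II was the 1 complex of 5 whose libraries with and without IL-33 on days 5 and 12 did not overlap. Its summed level was 605 CPM for untransduced ACT on day 5 (583 to 628), 483 for untransduced ACT on day 12 (402 to 577), 535 for PD1d/IL-2v (516 to 555) and 573 for the non-treated pool (504 to 649). It was 443 CPM for PD1d/IL-33 (416 to 472), while PD1d/IL-2v/IL-33 ACT had 421 (401 to 440) on day 5 and 386 (372 to 402) on day 12. Thus the 3 libraries of days 5 and 12 whose transferred cells secreted IL-33 lay below the other 4 of those days, though the counting interval of untransduced ACT on day 12, with 39 cells, reached into their range. PD1d/IL-2v/IL-33 ACT on day 26, the only library of that day, stood at 540 CPM, within the range of the libraries without IL-33.

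The same order held in CD4 T and NK cells, which were not among the transferred cells. CD4 T cells had 407, 447 and 430 CPM of complex II RNA in the libraries with IL-33 against 677, 675, 681 and 662 in the other 4, with 606 on day 26. In the same order, CD4 T cells with a UMI of Foxp3, a regulatory T cell gene, were 15 of 80, 36 of 181 and 26 of 122. In the other 4 they were 74 of 173, 16 of 33, 119 of 165 and 10 of 22. Complex II was not summed apart by Foxp3, so its level in CD4 T cells cannot be told apart from this share. NK cells had 377, 394 and 410 CPM against 596, 597, 573 and 581, with 571 on day 26. In myeloid cells the groups overlapped, at 442 to 532 CPM in the 3 libraries with IL-33 and 469 to 535 in the 3 others with enough cells. The pattern in the 3 lymphoid gates held between day 12 libraries that share a code in the deposited library list. Whether this code marks a batch is not known here. CD8 T cells had 386 CPM with the full combination and 483 with untransduced ACT on day 12, and 443 with PD1d/IL-33 and 535 with PD1d/IL-2v. The same pairs gave 430 and 675, and 407 and 681, in CD4 T cells, and 410 and 597, and 377 and 573, in NK cells. A further pair that shares a code was PD1d/IL-2v/IL-33 ACT on day 26 and the non-treated pool of day 5. Its gap was smaller, at 540 and 573 CPM in CD8 T cells, 606 and 662 in CD4 T cells and 571 and 581 in NK cells. This grouping by IL-33 was made after the values were seen and was not tested, and the 3 gates of a library share its tube and its free RNA, so they are not independent. The ribosomal protein share of all passing cells was 27.6% to 33.3% in the same 3 libraries and 23.9% to 26.5% in the other 4; with ribosomal and mitochondrial genes left out of the total, complex II in CD8 T cells was 627 to 665 CPM against 774 to 883, again without overlap.

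Complexes I, III and V and the members as a whole overlapped between the same libraries in CD8 T cells: all 101 genes summed to 25751 to 26633 CPM with IL-33 and 22507 to 27776 without. Complex IV did too, at 8106 to 8438 CPM against 6242 to 8278. In CD4 T cells complex I was lower without overlap (6298 to 6705 against 6748 to 7674 CPM) and so was complex V (7051 to 7511 against 7523 to 8311), in each case by a narrow gap. The complex I sums include Ndufa4 and were not taken again without it.

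Among the genes of complex II, Sdha codes for the flavoprotein that holds the catalytic site for succinate, Sdhb for the iron-sulfur subunit, Sdhc and Sdhd for the membrane anchors and Sdhaf1 to Sdhaf4 for assembly factors. Sdhb in CD8 T cells stood at 141, 122 and 127 CPM in PD1d/IL-33 and in PD1d/IL-2v/IL-33 ACT on days 5 and 12, against 208, 169, 176 and 174 in untransduced ACT on days 5 and 12, PD1d/IL-2v and the non-treated pool. Sdha in the same order stood at 90.8, 85.8 and 65.9 CPM against 114, 94.3, 98.9 and 128. Both genes were lower without overlap in these libraries with IL-33 of days 5 and 12, and Sdha by a small gap. Sdhaf1, which helps to insert the iron-sulfur clusters of Sdhb, was at 18.8, 24.3 and 16.7 CPM against 46.5, 55.0, 34.4 and 48.7. The anchors showed no such order: Sdhc lay between 38.5 and 46.5 CPM with IL-33 and between 37.1 and 55.7 without, and Sdhd between 76.6 and 81.2 with and between 58.9 and 102 without.

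Over all members, 12 of 100 in CD8 T cells were lower without overlap in the libraries with IL-33, where 12.8% of all genes were, and 8 of 100 were higher, where 7.92% of all genes were. In CD4 T cells 22 of 93 members were lower (15% of all genes) and 3 higher (8.38%), and in NK cells 19 of 97 lower (16.7%) and 6 higher (5.8%). These shares of the members lie near those of all genes in CD8 T and NK cells. Complex II gave 4 of 8, 4 of 7 and 6 of 8 lower genes in the 3 gates and none higher. In all 3 gates at once, 6 of 93 members were lower, where 3.32% of 7083 genes were: Sdha, Sdhb, Sdhaf1, Uqcrc1 (a core protein of complex III), Atp5a1 (the alpha subunit of ATP synthase) and Ndufv1 (the NADH-binding subunit of complex I). Uqcrh, the hinge protein of complex III, was the 1 member higher in all 3, where 1.86% of genes were.

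Uqcrc1 in CD8 T cells was at 96.3, 91.2 and 72.9 CPM in PD1d/IL-33 and PD1d/IL-2v/IL-33 ACT on days 5 and 12, against 172, 185, 138 and 118 in untransduced ACT on days 5 and 12, PD1d/IL-2v and the non-treated pool. Ndufv1 was at 49.5, 37.0 and 44.2 CPM against 86.3, 51.1, 80.7 and 71.9. Atp5a1 was at 315, 331 and 297 CPM against 456, 354, 400 and 392. Uqcrh ran the other way, at 979, 906 and 869 CPM against 729, 719, 753 and 831. On day 26 these genes were at 121, 68.4, 327 and 851 CPM, so that Uqcrc1 and Ndufv1 were inside the range of the libraries without IL-33, and Atp5a1 and Uqcrh were not. Enzymes of the TCA cycle other than complex II also counted among the lower genes, 5 of 14 in CD8 T cells (Fh1, Idh3b, Suclg1, Idh2 and Ogdh). In CD4 T and NK cells 4 and 6 of 14 were lower, with none higher in any of these gates. The shares of all genes lower were 12.8%, 15% and 16.7%. For the mitochondrial ribosome 10 of 77, 10 of 73 and 18 of 77 genes were lower and 3, 1 and 1 higher. Glycolysis had 4 of 16, 2 of 15 and 3 of 15 genes higher (7.92%, 8.38% and 5.8% of all genes) and 1 lower, in CD4 T cells. Genes of mitochondrial DNA had 0, 2 and 5 of 13 higher and 1, 0 and 0 lower in CD8 T, CD4 T and NK cells. Other chain and carrier genes had 6 of 18, 1 of 13 and 1 of 17 higher and 4, 2 and 2 lower. Cristae genes had 0 of 8, 3 of 7 and 2 of 8 lower and none higher. Biogenesis regulators had 1 of 13, 1 of 8 and 0 of 12 higher and 1, 0 and 1 lower. These lists were not tested.

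**Figure D2:**
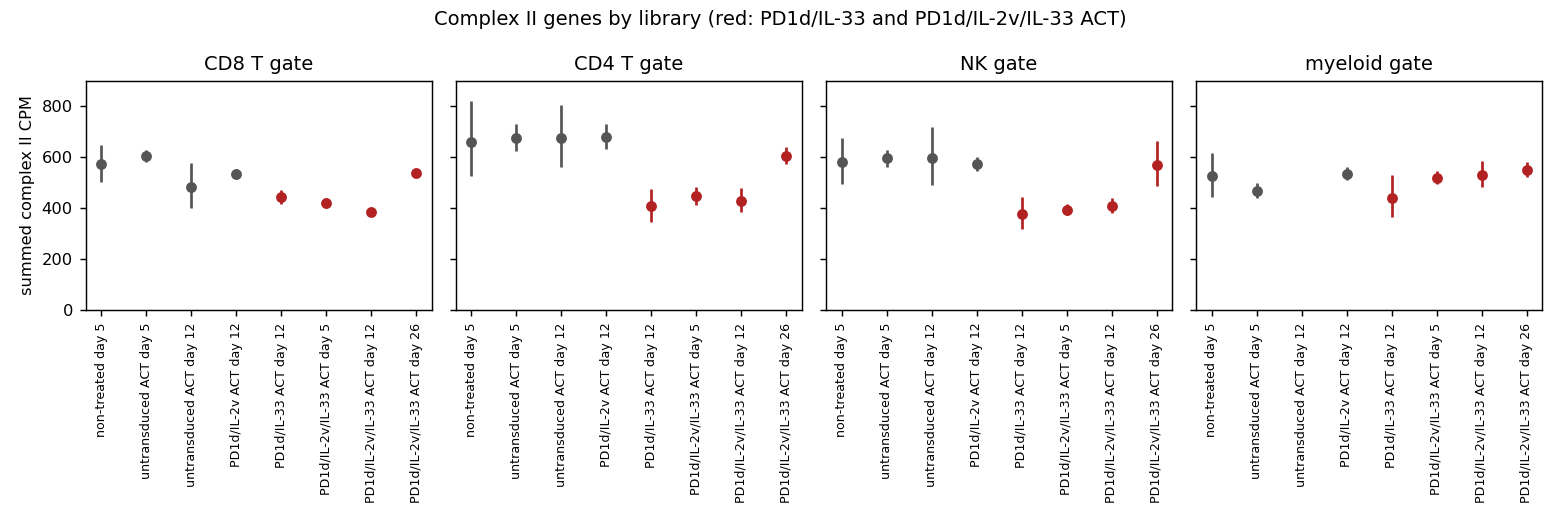
Summed complex II CPM (vertical axis) in each library of the 4 gates, with exact Poisson 95% intervals as bars and the libraries with IL-33-secreting cells set apart by color. In the CD8 T, CD4 T and NK gates the points of the 3 libraries of days 5 and 12 with IL-33 lie below the other 4 of those days, and in the myeloid gate they overlap.

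The promoter windows of Sdha, the catalytic subunit, and Sdhd, a membrane anchor, are shown because complex II had the highest share of windows with the letters bound by NRF1 and GABP, factors known to act on many nuclear respiratory genes. Each run gives the 250 bases before the annotated start (RefSeq, GRCm38.p6), 5′ to 3′ on the gene's strand. Sdha lies at chr13:74350241-74350490 and Sdhd at chr9:50603850-50604099, both read from the minus strand. Capitals mark the letters GCGCANGCGC of NRF1 and, in Sdhd, CCGGAAG of the ETS family (GABP) on the opposite strand.
Sdha: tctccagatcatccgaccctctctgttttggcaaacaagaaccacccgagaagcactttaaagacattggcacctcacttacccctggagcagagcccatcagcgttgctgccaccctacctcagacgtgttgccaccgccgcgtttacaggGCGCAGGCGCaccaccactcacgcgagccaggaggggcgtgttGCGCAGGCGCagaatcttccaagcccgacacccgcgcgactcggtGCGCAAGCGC
Sdhd: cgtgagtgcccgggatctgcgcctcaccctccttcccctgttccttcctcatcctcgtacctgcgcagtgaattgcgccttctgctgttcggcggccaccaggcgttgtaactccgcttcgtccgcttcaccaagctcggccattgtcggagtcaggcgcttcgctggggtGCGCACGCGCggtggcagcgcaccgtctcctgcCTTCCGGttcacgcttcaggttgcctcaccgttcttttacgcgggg
In Sdha the capitals start 98, 55 and 10 bases before the start, and in Sdhd 79 bases (NRF1) and 46 bases (ETS) before it. Over windows from 250 bases before to 50 bases after the start, searched on both strands, NRF1 letters stood in 25% of 88 windows of 82 matched members and in 4.6% of all 32851 windows. ETS letters stood in 29.5% and 8.86%, and YY1 letters (AAGATGGCG) in 9.09% and 1.4%. Of the 7 complex II windows, 4 held NRF1 letters (57.1%) and 5 held ETS letters (71.4%). NRF1 letters were in 24.4% of 41 complex I, 20% of 5 complex III, 5.26% of 19 complex IV and 37.5% of 16 complex V windows, and ETS letters in 12.2%, 40%, 47.4% and 31.2%, with no test of these differences. Sdhb, Sdhaf1 and Sdhaf2 held ETS letters but no NRF1 letters. In Sdhb and Sdhaf1 the ETS letters lay after the start, outside the 250 bases before it. Sdhb and Sdhaf1 were among the genes lower in the libraries with IL-33 of days 5 and 12, and Sdhd showed no such order in CD8 T cells. No link between these letters and RNA levels was tested. A match describes the letters of the window and shows no binding.

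The level of the 101 genes rose with the number of UMIs in a cell. In CD8 T cells without a Mki67 UMI, the summed CPM was higher in cells of 4000 to 8000 UMIs than in cells of 2000 to 4000 in 7 of 7 libraries (median log2 difference 0.08, range 0.06 to 0.36). It was higher again in cells of 8000 to 16000 UMIs in 6 of 6 libraries (median 0.15) and of 16000 to 40000 in 3 of 3 (median 0.27). The median step was above 0 for each complex, with ATP synthase higher at both of the first 2 steps in every library compared. The rise was not particular to these genes. In the same CD8 T cells ribosomal protein RNA had library medians of 275536, 311932 and 337472 CPM in the first 3 bins. The genes of mitochondrial DNA went down, with medians of 35714, 30610 and 28973 CPM. In CD4 T cells the first step was positive in 6 of 6 libraries (median 0.23) and the second in 5 of 5 (median 0.14). NK cells showed it in 6 of 7 libraries, at a median of 0.05, and in 3 of 4, and myeloid cells in 3 of 4 and 5 of 5. These bins hold different cells of the same tube and were not tested.

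**Figure D3:**
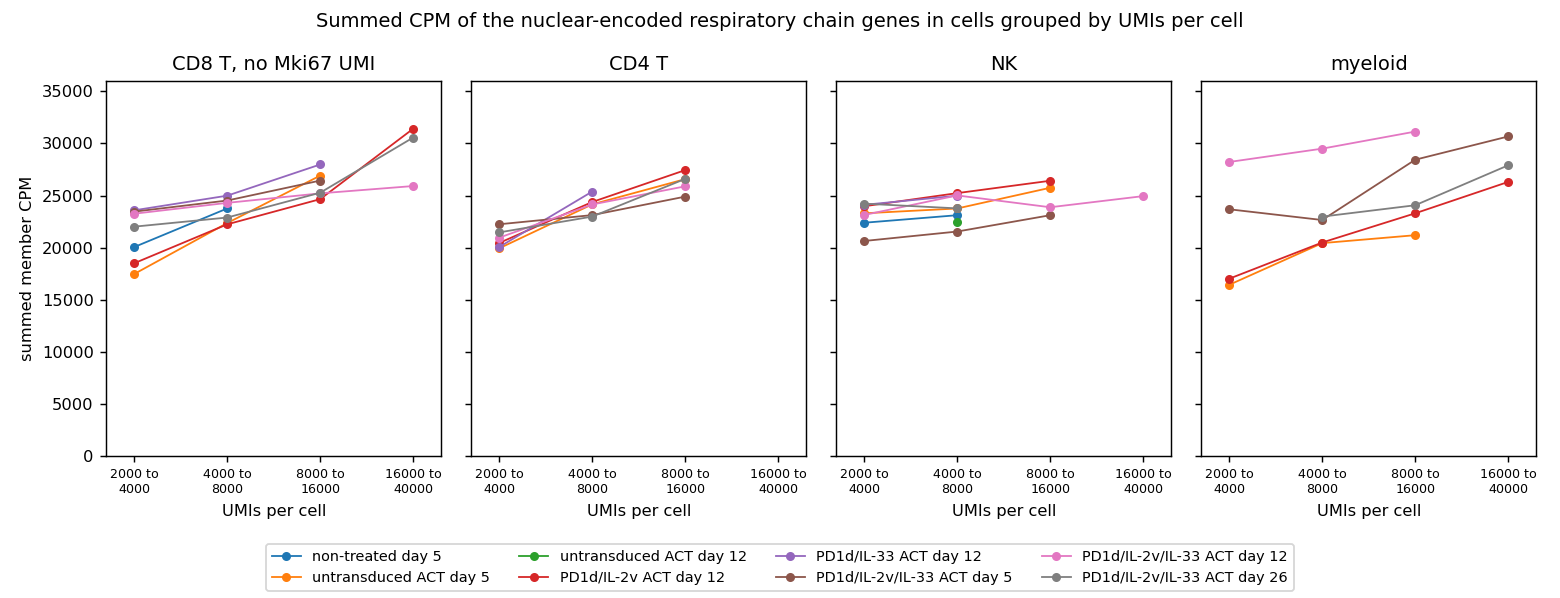
Summed CPM of the 101 genes (vertical axis, from 0) in cells grouped by UMIs per cell (horizontal axis), 1 line per library, in CD8 T cells without a Mki67 UMI, CD4 T, NK and myeloid cells. Lines rise from left to right in the CD8 T and CD4 T panels and are flatter in the NK panel. In the myeloid panel PD1d/IL-2v/IL-33 ACT on day 12 lies above the other libraries plotted in the 3 bins where it has a point.

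Median UMIs per cell were 5142 to 8141 over libraries in CD8 T cells, 3914 to 5811 in CD4 T cells, about 4106 to 7395 in NK cells and about 5566 to 10665 in myeloid cells. In the 6 libraries with at least 20 Mki67-detected CD8 T cells they were 7387 to 16469 in these cells and 5085 to 7791 in CD8 T cells without a Mki67 UMI. Each comparison of the members between gates below is therefore given again for cells paired within a library on UMIs (within 10%). This pairing was chosen after the values were seen. The lists of other mitochondrial genes were not run again on paired cells in any comparison. The comparisons used edgeR's quasi-likelihood test on UMIs summed per library and gate, with the library as a block, and a gene was called at a Benjamini-Hochberg adjusted p under 0.05 over all genes tested.

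In CD8 T cells with Mki67 RNA, the first comparison, most subunits stood higher than in the CD8 T cells of the same libraries without it. Of 96 members tested in 6 libraries, 46 rose and 4 fell, where 18.8% of 8910 genes rose and 17.4% fell. The members' median log2 difference was 0.17 and that of all genes -0.03. Complex I had 22 higher of 44, complex III 6 of 8, complex IV 7 of 20, complex V 9 of 16 and complex II 2 of 8. Subunits made up nearly all of this, with 44 higher and 2 lower of 74, while of 22 factors 2 were higher and 2 lower. Summed CPM was higher in 6 of 6 libraries, at 27866 to 31535 against 23803 to 25946.

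Ndufc1, an accessory subunit of complex I, had a lowest, median and highest library of 175, 191 and 219 CPM with and 99.8, 121 and 155 CPM without Mki67 RNA, and rose (log2 difference 0.55 ± 0.09, SE, adjusted p = 2.9e-05). Cox7a2, a small subunit of complex IV, had 589, 614 and 640 CPM against 346, 436 and 459 (0.51 ± 0.07, adjusted p = 4.8e-06). Ndufa5, also of complex I, had 116, 140 and 171 CPM against 68.4, 102 and 110 (0.51 ± 0.09, adjusted p = 0.00012). None of these 3 genes overlapped between the groups. The assembly factor Ndufaf2 had 28.5, 34.1 and 43.5 CPM against 14.0, 20.8 and 23.6 (0.72 ± 0.13, adjusted p = 0.00014), and Cox6a1 423, 462 and 538 against 268, 320 and 429 (0.48 ± 0.07, adjusted p = 2.2e-05), the latter with a small overlap.

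Among the central subunits, Sdhb rose by 0.46 on the log2 scale, Cox5a by 0.42, Ndufv1 by 0.36, Atp5b (the catalytic beta subunit of ATP synthase) by 0.29, Atp5a1 and Uqcrc1 by 0.23 each and Uqcrfs1 (the Rieske iron-sulfur protein) by 0.17. Ndufs1, Sdha and Cox4i1 were not called, at 0.08, -0.05 and 0.03. Of the 4 lower genes, 3 were lower in each of 6 libraries. Cox7a2l, counted here with the factors of complex IV, had 191, 211 and 264 CPM with and 259, 287 and 358 CPM without Mki67 RNA (-0.49 ± 0.07, adjusted p = 2.0e-05). Ndufa6 had 303, 356 and 377 CPM against 420, 478 and 482 (-0.47 ± 0.06, adjusted p = 3.5e-06), and Uqcrh 627, 707 and 796 against 774, 900 and 1027 (-0.38 ± 0.06, adjusted p = 1.6e-05). Cox14, a complex IV factor, fell by 0.25.

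The count of higher members changed with the treatment of depth. With cells thinned to 2000 UMIs after gating, 26 of 87 were higher, all of them also called in all cells. In cells paired on UMIs, 1 member was higher (Ndufa4, 0.25, adjusted p = 0.010) and 10 were lower of 95, with Ndufc1 at -0.02 and Ndufaf2 at 0.11. Ndufa6, Uqcrh and Cox7a2l stayed lower, at -0.41, -0.31 and -0.33. Summed CPM was still higher in 5 of 6 libraries of paired cells, with log2 differences of -0.03 to 0.17. A cell of more UMIs is also more likely to show a Mki67 UMI, so depth and proliferation cannot be told apart in the unpaired comparison.

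In NK cells, which carry no T cell receptor, no member was called higher than in CD8 T cells and 39 of 96 fell, where 17.5% of 8797 genes rose and 19.9% fell (8 libraries). At an unadjusted p under 0.05, 1 member was higher and 52 lower, and DESeq2 called 1 higher and 41 lower. The members' median was -0.19 against 0.00 for all genes. The lower genes were 18 of 44 in complex I, 1 of 8 in complex II, 3 of 8 in complex III, 8 of 20 in complex IV and 9 of 16 in complex V. Summed CPM was lower in 8 of 8 libraries, by between 0.28 and less than 0.01 on the log2 scale.

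Cox5a, a nuclear subunit of complex IV, was lower in NK cells in each of 8 libraries, with a lowest, median and highest of 286, 372 and 422 CPM against 452, 507 and 597 in CD8 T cells (-0.56 ± 0.08, adjusted p = 1.2e-05). The gates did not overlap for this gene, and it stayed lower in paired cells (-0.31, adjusted p = 0.0058). Sdhb was also lower in every library, at 73.4, 131 and 162 CPM against 122, 169 and 208 (-0.48 ± 0.08, adjusted p = 0.00012), with overlapping ranges. Ndufv2, which carries an iron-sulfur cluster of complex I, had 55.8, 112 and 141 CPM against 126, 139 and 184 (-0.56 ± 0.11, adjusted p = 0.00043). The copper chaperone Cox17 had 194, 241 and 335 CPM against 196, 377 and 530 (-0.66 ± 0.11, adjusted p = 8.1e-05).

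The complex I assembly factors Ndufaf4 and Ndufaf5 fell by 0.68 ± 0.16 and 0.67 ± 0.22 (adjusted p = 0.0031 and 0.025), Atp5b fell by 0.39, Uqcrfs1 fell by 0.31 and Cox4i1 fell by 0.19. Sdha, Atp5a1, Ndufs1, Ndufv1 and Uqcrc1 were not called, at 0.14, 0.04, 0.03, -0.16 and -0.14. In paired cells 3 members were higher (Sdhc, Cox7a2 and Cox8a) and 12 were lower of 94, of which 10 were also lower in all cells. Among these 12 were Cox5a, Sdhb, Cox17, Ndufaf4 and Uqcrfs1. Ndufv2, Ndufaf5, Atp5b and Cox4i1, lower in all cells, were not among them. Summed CPM of paired NK cells was higher in 5 of 8 libraries, so the lower calls hold for single genes and not for the sum.

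CD4 T cells had 36 lower members and 1 higher of 95 against CD8 T cells, where 14.6% of 7705 genes fell and 14.1% rose (8 libraries, members' median -0.22). The 36 comprised 16 of 43 genes of complex I, 1 of 8 of complex III, 10 of 20 of complex IV and 9 of 16 of complex V, and none of complex II. On plain summed CPM the direction was mixed, with CD4 T cells higher in 3 of 8 libraries and log2 differences of -0.17 to 0.08. Paired on UMIs, 6 members were lower (Ndufaf4, Ndufa12, Atp5h, Atp5g2, Cox7a2l and Cox8a) and 1 higher of 92, and without untransduced ACT on day 5 the lower count was 19.

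The 1 higher member was Sdhaf1, the complex II assembly factor. In CD4 T cells it stood at 107 CPM for untransduced ACT on day 5, 199 on day 12, 99.6 for PD1d/IL-2v, 36.1 for PD1d/IL-33 and 95.7 for the non-treated pool, and PD1d/IL-2v/IL-33 ACT gave 40.4, 43.4 and 88.5 on days 5, 12 and 26. CD8 T cells of the same libraries had a lowest, median and highest of 16.7, 31.1 and 55.0 CPM. CD4 T cells were higher in 8 of 8 libraries (log2 difference 1.18 ± 0.11, adjusted p = 3.7e-07) and in paired cells (1.36, adjusted p = 9.1e-07), and the ranges of the gates overlapped only through the 3 libraries with IL-33 of days 5 and 12. Within the CD4 gate, cells with a UMI of Foxp3, the regulatory T cell factor, had more Sdhaf1 than cells without in 7 of 8 libraries. Untransduced ACT on day 5 had 148 CPM (117 to 184) in Foxp3-detected and 58.5 CPM (38.2 to 85.7) in Foxp3-not-detected cells. PD1d/IL-2v/IL-33 ACT on day 26 had 135 (110 to 164) and 61.3 (48.4 to 76.5) CPM. In the other libraries the counting intervals overlapped, as in PD1d/IL-33 ACT with 56.2 (18.3 to 131) and 30.1 (13.8 to 57.2) CPM. The non-treated pool, the exception, had 90.1 and 105 CPM on 7 and 5 UMIs. Foxp3-detected cells had more UMIs in most libraries, and this split, chosen after the values were seen, was not tested.

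The largest fall in CD4 T cells was that of Ndufaf4, with 15.8, 20.4 and 32.9 CPM as lowest, median and highest against 27.8, 35.3 and 48.6 in CD8 T cells (-0.97 ± 0.14, adjusted p = 3.4e-05). Cox10, an enzyme on the path to the heme A of complex IV, fell by 0.54 (adjusted p = 0.026), Ndufa12 fell by 0.47 (adjusted p = 0.0022), Atp5g1 fell by 0.45 (adjusted p = 0.00023) and Cox17 fell by 0.42 (adjusted p = 0.0011). Atp5b, Cox5a and Cox4i1 fell by 0.36, 0.33 and 0.24. Ndufs1, Ndufv1, Sdha, Sdhb, Uqcrc1, Uqcrfs1 and Atp5a1 were not called, with values between -0.33 and -0.01.

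Myeloid cells differed from CD8 T cells in the balance of subunits and factors. Of 97 members tested in 7 libraries, 30 rose and 8 fell, where 32.4% of 9464 genes rose and 33.5% fell, so the share of members that rose was near that of all genes and the share that fell was lower. Subunits had 28 higher and 2 lower of 75, and factors 2 higher and 6 lower of 22. The scale matters here: ribosomal protein RNA was 149141 to 204189 CPM in myeloid and 278782 to 353742 CPM in CD8 T cells. On plain CPM the members' sum was higher in myeloid cells in 2 of 7 libraries only, and with ribosomal and mitochondrial genes left out of the TMM scaling (which moved the median of all genes to -0.20) 21 rose and 19 fell. Paired on UMIs, 33 rose and 9 fell of 96.

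In complex III 5 of 8 genes rose and 1 fell. Uqcrb, its ubiquinone-binding subunit, had a lowest, median and highest of 305, 340 and 453 CPM in myeloid and 183, 238 and 296 CPM in CD8 T cells, with no overlap, and was higher in 7 of 7 libraries (0.83 ± 0.13, adjusted p = 6.1e-05). Uqcr11 had 199, 270 and 397 CPM against 125, 198 and 290 (0.70 ± 0.12, adjusted p = 0.00011), with overlap. Uqcrc1 and Uqcrfs1 rose by 0.53 and 0.40, and Uqcrh fell by 0.34. In complex II the anchors Sdhc (46.9, 65.9 and 108 CPM against 37.1, 45.2 and 55.7, 0.77 ± 0.16, adjusted p = 0.00066) and Sdhd (0.55) rose, and Sdha and Sdhb were not called, at -0.13 and 0.21.

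Of the other complexes, Ndufc1 rose by 0.66 ± 0.12 (adjusted p = 0.00027) and Cox4i1 by 0.25. Cox6b2, an isoform of a complex IV subunit known mainly from testis, rose from a low level, with 3.08, 5.60 and 24.9 CPM against 0, 1.43 and 4.40 (1.59 ± 0.42, adjusted p = 0.0043). Ndufs1, Ndufv1, Cox5a, Atp5a1 and Atp5b were not called, with values between -0.03 and 0.18.

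The genes that fell in myeloid cells were mostly factors of complex IV and I assembly. Cox20, a chaperone of the mitochondrially encoded subunit COX2, had 49.1, 53.8 and 77.6 CPM against 115, 135 and 176 in CD8 T cells, with no overlap, and was lower in each of 7 libraries (-1.06 ± 0.12, adjusted p = 2.1e-06) and in paired cells (-1.05). Cox11, which delivers copper, fell by 1.04 ± 0.24 (adjusted p = 0.0017), Cox18, which inserts COX2 into the membrane, fell by 0.95 ± 0.20 (adjusted p = 0.00089), Ndufaf1 fell by 0.85 ± 0.21 (adjusted p = 0.0028) and Ndufaf4 fell by 0.82 ± 0.17 (adjusted p = 0.00062). Cox7a2l fell by 0.46 and Atp5g2, an isoform of the c subunit of ATP synthase, fell by 0.50. Ndufaf4 was thus lower than in CD8 T cells in all 3 other gates, 3 comparisons that share the CD8 T cells.

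**Figure D4:**
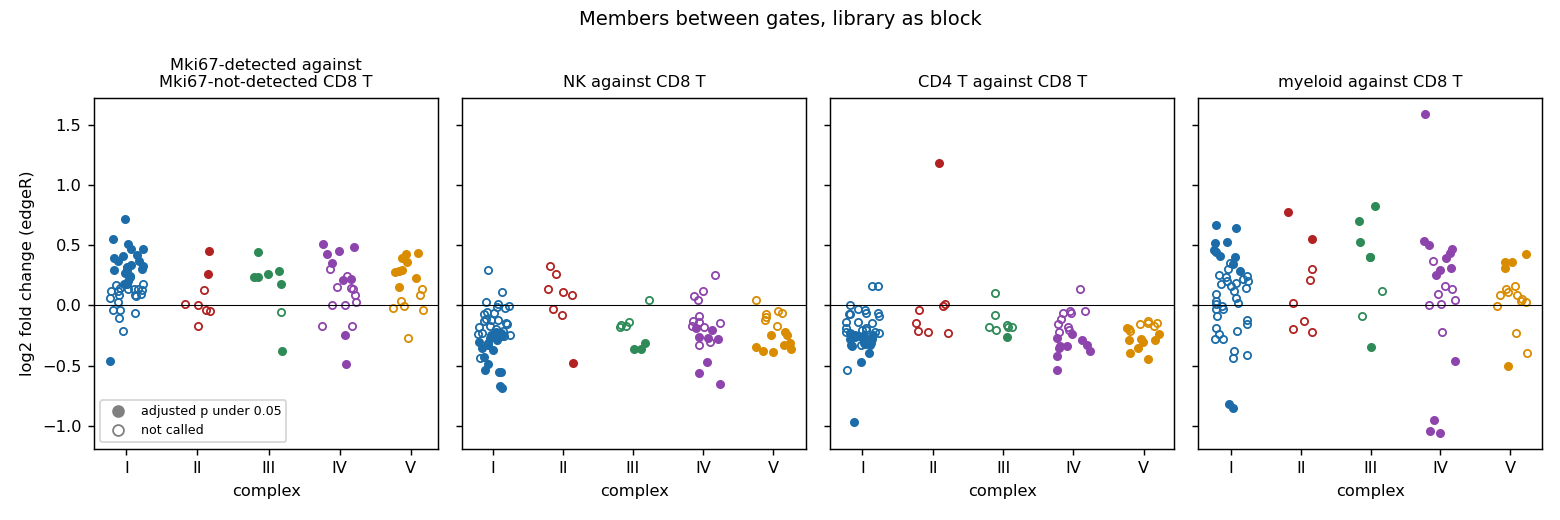
Log2 difference of each tested member (points) in the 4 comparisons of gates, by complex, with called genes (edgeR, adjusted p under 0.05) filled. Points lie mostly above 0 in Mki67-detected CD8 T cells and below 0 in NK and CD4 T cells, Sdhaf1 stands out at 1.18 in CD4 T cells, and the myeloid comparison spreads to both sides.

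Between libraries, the members' sum in CD8 T cells had log2 ratios of -0.06 to 0.24 over 8 comparisons. Relative to untransduced ACT, PD1d/IL-2v/IL-33 ACT had a log2 ratio of -0.06 on day 5 (counting interval -0.07 to -0.05), and on day 12 its ratio was -0.01 to PD1d/IL-2v and -0.04 to PD1d/IL-33. Over its own days the ratio was -0.05 from day 5 to 12 and -0.05 from day 12 to 26. The other 3 ratios were 0.24 for untransduced ACT to the non-treated pool on day 5 (76 of 96 members on the higher side), 0.19 for PD1d/IL-2v/IL-33 to untransduced ACT on day 12 (39 CD8 T cells in the latter) and 0.02 for PD1d/IL-33 to PD1d/IL-2v. With 1 library per condition and day these ratios have no replicate check, and of the first 5, 4 turned sign under another scaling or depth. The ratio of 0.24 is not adjusted for depth. Median UMIs per CD8 T cell were 7577 in untransduced ACT on day 5 and 5142 in the non-treated pool. The members' sum rose with UMIs per cell, and in cells of like depth the order was reversed. In CD8 T cells of 2000 to 4000 UMIs it was 17471 CPM in untransduced ACT and 20028 in the non-treated pool (22 cells). In CD8 T cells of 4000 to 8000 UMIs it was 22414 and 23458 CPM (38 cells in the pool). Deeper cells of the pool were too few to compare. The higher sum over all CD8 T cells was thus not seen within these bins, and this was not tested. In myeloid cells PD1d/IL-2v/IL-33 ACT was above untransduced ACT on day 5 by 0.44 (0.42 to 0.45), and on day 12 above PD1d/IL-2v by 0.37 and above PD1d/IL-33 by 0.27. In those 3 comparisons 78 of 91, 69 of 87 and 64 of 77 members were on the higher side. Past 1.5-fold, after 10 CPM were added, 18 members were higher and 1 lower against untransduced ACT (13.8% and 8.85% of all genes), 14 and 2 against PD1d/IL-2v (12.9% and 11.5%) and 9 and 0 against PD1d/IL-33 (11.3% and 8.28%). From day 12 to 26 the myeloid sum fell by 0.30 on the log2 scale. None of this was tested.

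Single members of CD8 T cells moved further. Ratios of genes were taken after 10 CPM were added, and genes past 1.5-fold are counted with no test. On day 5, 7 of 96 members were lower and 0 higher in PD1d/IL-2v/IL-33 than in untransduced ACT, where 9.18% of all genes were lower and 7.46% higher. The lowest were Ndufv1 (37.0 against 86.3 CPM, log2 ratio -1.03), Uqcrc1 (-0.85) and Ndufs8 (67.1 against 117 CPM, -0.72), of which Ndufv1 and Ndufs8 belong to the electron-carrying arm of complex I, and the highest Uqcrq (0.51), Uqcr11 (0.50) and Ndufaf4 (0.45). On day 12, 7 of 97 members were lower and 2 higher than in PD1d/IL-2v ACT (7.23% and 5.51% of all genes). There Uqcrc1 (-0.84), Uqcrc2 (88.1 against 155 CPM, -0.75) and Ndufv1 (-0.74) were lowest and Cox6a2 (1.24), Cox17 (0.71) and Ndufa2 (0.30) highest. Sdhb was at -0.72 and -0.44 in these comparisons, Atp5b at -0.42 and -0.54, Atp5a1 at -0.45 and -0.42, Sdha at -0.37 and -0.52, and Cox4i1 at 0.05 and 0.25.

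Against PD1d/IL-33 ACT on day 12, where both libraries had IL-33, 1 of 97 members was lower and 1 higher (4.29% and 3.49% of all genes): Ndufa4 at 261 against 548 CPM (-1.04) and Cox6a2 (1.17). From day 5 to 12 of PD1d/IL-2v/IL-33 ACT, 1 was lower, Ndufaf4 (27.8 against 48.6 CPM, -0.63), and 1 higher, Cox6a2 (1.20), with 2.63% and 1.57% of all genes. From day 12 to 26, 4 of 98 were higher and 1 lower (9.43% and 5.49% of all genes). Sdhaf2, the factor that adds flavin to Sdha, went from 24.0 to 53.4 CPM (0.90), Ndufa4 from 261 to 440 (0.74) and Uqcrc1 from 72.9 to 121 (0.66), and Cox6a2 fell by 1.23. Sdha and Sdhb were at 0.53 and 0.38 in that step.

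PD1d/IL-33 against PD1d/IL-2v ACT on day 12 had 5 lower and 1 higher of 96 (6.75% and 7.71% of all genes), with Atp5b (367 against 591 CPM, -0.67) and Ndufaf7 (-0.67) lowest and Cox17 (494 against 234 CPM, 1.04) highest. Untransduced ACT against the non-treated pool on day 5, with no adjustment for depth, had 10 higher and 0 lower of 96 (8.1% and 5.26% of all genes). The highest there were the factors Ndufaf1 (0.88), Cox10 (0.76) and Cox15 (0.75), all under 20 CPM. These counts were not taken again in cells of like depth, where the members' sum was lower in untransduced ACT. PD1d/IL-2v/IL-33 against untransduced ACT on day 12, with 39 CD8 T cells in the latter, had 4 higher and 5 lower of 95 (15.6% and 13% of all genes), with Cox17 (0.96) and Ndufb8 (0.85) highest and Sdhaf1 (-1.29), Uqcrc1 (-1.23) and Cox11 (-1.12) lowest.

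Cox6a2, Ndufa4 and Cox17 stood apart in several of these comparisons. Cox6a2, an isoform of a complex IV subunit best known from heart and skeletal muscle, had 98 UMIs in 36 of 716 CD8 T cells on day 12 of PD1d/IL-2v/IL-33 ACT (14.6 CPM, at most 19 UMIs in 1 cell) and at most 7 UMIs in any other library's CD8 T cells. NK cells of the same library had 35 UMIs in 10 of 197 cells. None of the 36 CD8 T cells had a UMI of Siglech, a marker of plasmacytoid dendritic cells. Ndufa4, a complex IV subunit in spite of its name, was at 261 CPM in CD8 T cells of that library and between 385 and 548 in the other 7. Cox17 was at 494, 530 and 391 CPM in PD1d/IL-33 and PD1d/IL-2v/IL-33 ACT on days 5 and 12, and at 392, 196, 234, 362 and 280 in untransduced ACT on days 5 and 12, PD1d/IL-2v, the non-treated pool and day 26. In CD4 T cells (352 to 429 against 161 to 343 CPM) and NK cells (253 to 335 against 194 to 248) the libraries with IL-33 of days 5 and 12 lay above the others without overlap.

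Subunit isoforms had similar proportions in the lymphoid gates. Of the UMIs of the 3 genes for the ATP synthase c subunit, whose mature protein is the same, Atp5g1, Atp5g2 and Atp5g3 took 15.5%, 46.7% and 37.8% in CD8 T cells, 14.2%, 44.3% and 41.5% in CD4 T cells and 14.8%, 48.7% and 36.5% in NK cells. In myeloid cells they took 21.6%, 36.3% and 42.1%, with Atp5g1 at 20.3% to 26.2% over 8 libraries and at most 18.3% in any library's CD8 T cells. Reads shared with near-identical copies elsewhere in the genome were not counted, which leaves these shares uncertain. Cox4i2, the isoform linked to low oxygen, gave 50 of 12934 Cox4i UMIs in myeloid cells and 0 of 37433, 6208 and 10113 in CD8 T, CD4 T and NK cells. Cox7a2l ranged over libraries from 30.9% to 48.5% of its set in CD8 T cells, from 32.4% to 47.3% in CD4 T cells, from 28.8% to 40.0% in NK cells and from 20.9% to 33.1% in myeloid cells, so the gates overlapped. Cox6a2 was 0.83%, 2.01% and 2.97% of Cox6a UMIs in CD8 T, NK and myeloid cells. In CD8 T cells 98 of 114 Cox6a2 UMIs lay in the day 12 library of the combined product. In myeloid cells 1 cell held 45 of 74 UMIs on day 5 of that product, and another 39 of 46 on its day 26. On day 5 of untransduced ACT 1 cell held 32 of 42, and with PD1d/IL-2v 1 cell held all 12. Siglech was present in 2 of 3, 1 of 4, 2 of 6 and 1 of 1 of these libraries' Cox6a2-detected myeloid cells. The Cox6a2 shares thus rest on few cells and do not describe whole gates. Cox6b2 was 0.42% of Cox6b UMIs in CD8 T and 0.86% in myeloid cells. Cox7b2 and Cox8c had no UMI in any gate.

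Other mitochondrial genes are given beside the share of all genes called. In Mki67-detected CD8 T cells the mitochondrial ribosome had 37 higher and 4 lower of 77 genes (median 0.23), led by Mrpl18 (0.85), where 18.8% of all genes were higher and 17.4% lower. The TCA cycle had 6 higher of 14, led by fumarase, Fh1 (0.99), and glycolysis 7 higher and 2 lower of 15. Of 16 other chain and carrier genes 8 were higher, among them Coq7 (1.52), an enzyme of ubiquinone synthesis, and Atpif1 (0.87), the inhibitor of ATP synthase. Of 13 biogenesis regulators 4 were higher, with Tfb1m at 0.62, Tfam, the packing factor of mitochondrial DNA, at 0.44 and Nrf1 at 0.39. The 13 genes of mitochondrial DNA did not follow, with mt-Cytb higher (0.17), mt-Co1 lower (-0.24) and the other 11 not called. These lists were not run again on paired cells, here or in the comparisons of NK, CD4 T and myeloid cells that follow.

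In NK cells, where 19.9% of all genes were lower and 17.5% higher than in CD8 T cells, 11 of 13 genes of mitochondrial DNA were lower, with mt-Nd1 at -0.57, and so were 32 of 77 genes of the mitochondrial ribosome, with Mrps6 at -1.03. Glycolysis was lower in 10 of 15 genes, with Hk2 at -1.45, Gapdh at -1.12 and Pgk1 at -0.93. The TCA cycle had 1 higher and 3 lower of 14 (Idh2 -0.58), other chain and carrier genes 4 lower of 16 (Coq7 -1.15) and biogenesis regulators 1 higher of 13 (Myc 0.39). In CD4 T cells, where 14.6% of all genes were lower and 14.1% higher, 12 of 13 genes of mitochondrial DNA (mt-Nd2 -0.60) and 36 of 76 of the mitochondrial ribosome (Mrps18b -1.06) were lower, while 7 of 15 glycolytic genes were higher and none lower, with Pkm at 0.73, the glucose carrier Slc2a1 at 0.71 and Ldha at 0.58. The TCA cycle had 2 lower of 14 (Fh1 -0.45, Idh3a -0.43), other chain and carrier genes 1 higher and 3 lower of 15, and biogenesis regulators 1 higher and 2 lower of 9. Gpd2, which feeds electrons from glycolysis to ubiquinone, fell by 1.89 in CD4 T cells, Myc fell by 1.33 and Gabpb1, a subunit of GABP, rose by 0.74.

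In myeloid cells, where 32.4% of all genes were higher and 33.5% lower, glycolysis had 10 higher of 15 genes, with Hk2 at 2.79 and Slc2a1 at 1.86, and 1 lower, Slc2a3 at -4.62. The TCA cycle had 6 higher (Idh2 1.72, Fh1 0.98) and 2 lower (Suclg2 -1.01, Idh3a -0.74) of 14. Other chain and carrier genes had 6 higher and 4 lower of 17, and Cycs, cytochrome c, rose by 1.25. The mitochondrial ribosome, with 11 higher and 21 lower of 77, was below the share of all genes in both directions, and biogenesis regulators had 2 higher (Esrra 1.27, Ppargc1b 0.95) and 6 lower of 13 (Myc -2.05, Tfam -1.07, Tfb2m -1.05). None of the 13 genes of mitochondrial DNA was called in that edgeR test. Cristae genes gave 2 higher of 8 in Mki67-detected CD8 T cells, 1 lower of 7 in NK and in CD4 T cells, and 3 higher and 1 lower of 8 in myeloid cells.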

How the data were processed

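Single-cell RNA of 8 libraries was prepared with a 10x 5′ kit, and the deposited matrix holds whole UMI counts per gene and cell that the authors made with Cell Ranger (version 2.2.0 per the labels, GRCm38), which leaves out reads that map to several genes. Cells had 500 to 6000 genes, 2000 to 40000 UMIs, 5% to 60% ribosomal and under 10% mitochondrial UMIs, as in the study. No doublet caller was run. CD8 T cells had a Cd3 and a Cd8 UMI, no Cd4 or Ncr1 and at most 2 UMIs of Lyz2, Csf1r, Cd68, C1qa and Adgre1; CD4 T cells had Cd3 and Cd4 without Cd8; NK cells had Ncr1 without Cd3, Cd4 or Cd8; myeloid cells had at least 5 of those UMIs without Cd3 or Ncr1; Cd79a was absent from all. Counts were summed per library and gate.

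Gates of at least 20 cells were compared within libraries with edgeR 4.0.16 (R 4.3.3, TMM, filterByExpr, library as block, quasi-likelihood, Benjamini-Hochberg at 0.05). The p-values measure the spread of the gate difference over the 6 to 8 libraries of a comparison. These libraries are pools of different conditions and days, not replicates of 1 condition. DESeq2 1.42.0, other scalings, filters, gates, thinning to 2000 UMIs and leaving out each library were alternatives. In simulated data for NK against CD8 T cells (8876 genes) edgeR recovered 83.5% of 194 genes changed 2-fold, and 4.14% of its calls were false. Members in that comparison had smaller log2 differences, from -0.68 to 0.32, and the recovery of such sizes was not measured. Between libraries there was no test. Named genes were the 5 highest and 5 lowest called members per gate comparison, the 3 highest and 3 lowest per library ratio, 10 central subunits, isoform sets and up to 3 list genes in each direction. Members, lists and rules were chosen with earlier results of these data known.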

Additional observations from a re-analysis of the deposited data

How the results depend on the processing

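Higher members in Mki67-detected CD8 T cells, 46 in all cells, were 3 with the study's later cell filter, 3 with cells thinned to 2000 UMIs before gating, 26 when thinned after gating and 1 in cells paired on UMIs (33 to 42 with 1 library left out). Lower members in NK cells (39) were 16 and 19 with cells thinned before and after gating and 12 in paired cells (26 to 42 with 1 library left out). Lower members in CD4 T cells (36) were 17 with strict gates, 21 thinned after gating and 6 paired, and 19 to 36 with 1 library left out: 19 without untransduced ACT on day 5 and 22 without PD1d/IL-2v/IL-33 ACT on day 12 or on day 26. Lower members in myeloid cells (8) were 13 by DESeq2, 19 with TMM without ribosomal and mitochondrial genes, 16 without a count filter, 14 with the later filter and 8 to 16 with 1 library left out, 13 without PD1d/IL-2v and 16 without PD1d/IL-33; higher members were 20 to 31. Thinning after gating, pairing and the single depth bin were chosen after seeing the data.

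Log2 ratios of the members' sum in CD8 T cells changed size or sign with scale and depth. PD1d/IL-2v/IL-33 to untransduced ACT on day 5 (-0.06) was 0.0261 without ribosomal and mitochondrial genes in the total, 0.0571 on TMM, 0.0687 with the later filter, 0.0526 thinned, 0.0341 without Mki67-detected cells, 0.0753 with cells weighted equally and 0.137 in cells of 4000 to 8000 UMIs. To PD1d/IL-2v (-0.01) it was 0.0408, 0.153, 0.0929 and 0.081 under the first 4 of these, 0.065 with equal weights and 0.139 in that depth bin. To PD1d/IL-33 (-0.04) it was 0.0749, 0.105, -0.0545 and -0.0125, and -0.0541 in the bin. From day 5 to 12 (-0.05) it was 0.0192 without those genes, 0.128 on TMM, -0.0122 thinned and -0.0096 in the bin. From day 12 to 26 (-0.05) it was -0.137, -0.259, -0.089 and -0.117, then -0.0702, -0.0942 and -0.0918 for the last 3. The causes were not tested. The lower complex II level in the 3 libraries with IL-33 of days 5 and 12 kept its lack of overlap in CD8 T, CD4 T and NK cells under the 7 settings tried. These include the main setting, on which the grouping was made, and all reuse the same libraries, so they are no independent check. In some settings fewer than 4 libraries without IL-33 remained. In CD4 T cells 2 remained with strict gates, 3 with thinned cells and 2 in cells of 4000 to 8000 UMIs. In CD8 T cells 3 remained in that depth bin. No paired test was run between libraries, since each condition and day has 1 library and the groups share fewer than 2 replicate numbers. Libraries that share a code in the deposited list are set side by side for complex II, with no test. The tests of gates already have the library as a block. Genes of a few UMIs per library, such as Cox6a2 and Cox6b2, are at the limit of this depth.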
